A study of Arabidopsis thaliana with 12 samples.

Results

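NLR genes encode the nucleotide-binding, leucine-rich repeat receptors with which plants sense microbial proteins inside the cell. In the deposited count table, 154 of 33323 Arabidopsis thaliana genes carried a function text that names a TIR-NBS, CC-NBS-LRR, NB-ARC or NBS-LRR protein and no WRKY. Their transcripts were measured in whole rosettes, without roots, of 4 genotypes: jazDcdk8-1, jazD, cdk8-1 and the wild type Col-0. The mutant jazD lacks 10 of the JAZ repressors of jasmonate signalling, cdk8-1 is a mutant of the kinase gene CDK8 of the Mediator complex, and jazDcdk8-1 combines all of these mutations. Mutants and wild type shared a tray, with 18 days on peat pellets followed by 7 more in soil, at 20 °C and 16 h of light a day, and no treatment is named. Each genotype has 3 libraries, each made from an independent pool of about 20 plants. Because the 4 genotypes are fixed lines, a difference between 2 of them can come from the named mutation or from any other sequence difference that the lines carry. The 29 members with identifiers between AT5G42500 and AT5G59500 on chromosome 5 are reported apart from the 125 others, since jazD may carry foreign segments there.

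Plant NLR proteins are grouped by their front domain. TIR-type receptors have a Toll/interleukin-1 receptor domain and CC-type receptors a coiled coil, and many of both kinds recognise one microbial effector or guard one host protein that effectors attack. Activated TIR-type receptors signal through EDS1 with PAD4 or SAG101 to a small set of helper NLRs, of which ADR1 is one, while several CC-type receptors form membrane pores themselves. NLR transcripts are kept at a low level in healthy leaves, since too much receptor can trigger defence and stunt growth. By function text, 78 members outside the chromosome 5 interval were TIR-type, 22 were CC-type and 25 were of neither text, and 24, 4 and 1 members of these classes lay inside it.

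Library totals ran from 17583467 to 21030374 expected counts. CDK8 itself had 46 to 71 counts in the 6 libraries of cdk8-1 and jazDcdk8-1, against 335 to 409 counts in the 6 libraries of jazD and Col-0. Leaf genes such as RBCS1A, a small subunit of Rubisco, exceeded 20747 TPM (a transcript level scaled by gene length and by library) in every library, whereas the root hair gene EXPA7 had 0 counts in all 12 and the flower genes AP3, AG and PI stayed below 0.84 TPM. In such bulk tissue fewer cells of a type and less RNA per cell cannot be told apart. Of the members, 120 had enough counts to be tested, 97 outside and 23 inside the interval. The other 34 had at most 96 counts summed over all 12 libraries, and 5 of them had 0.

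The receptors were expressed at low to moderate levels in all genotypes, and a few of them carried much of the total. The tested members had a median of 3.74 TPM over the 12 libraries, against 10.6 TPM for all 19059 tested genes. In all, 95 members exceeded a mean of 1 TPM and 25 exceeded 10 TPM. The highest was RLM3, a TIR protein needed for resistance to the fungus Leptosphaeria maculans, with a mean of 97.7 TPM. RPP5 and RPP4, receptors for the downy mildew Hyaloperonospora arabidopsidis, and SNC1, whose gain of function causes constant defence, lie with RLM3 in a cluster of 8 members on chromosome 4 and reached 55.7, 39.3 and 45.0 TPM. RPP8, another downy mildew receptor, reached 44.9 TPM, and AT3G04210, a TIR-NBS gene with no leucine-rich repeat in its text, reached 54.2 TPM. Summed over all members, the level was 1001 ± 53.4 TPM in jazDcdk8-1, 967.5 ± 60.7 TPM in jazD, 959 ± 91.5 TPM in cdk8-1 and 1069 ± 43.2 TPM in Col-0 (SD, n = 3 each). The sums overlapped between genotypes in part, since Col-0 ranged from 1030.0 to 1115 TPM and jazD from 909.6 to 1031 TPM.

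**Figure D1:**
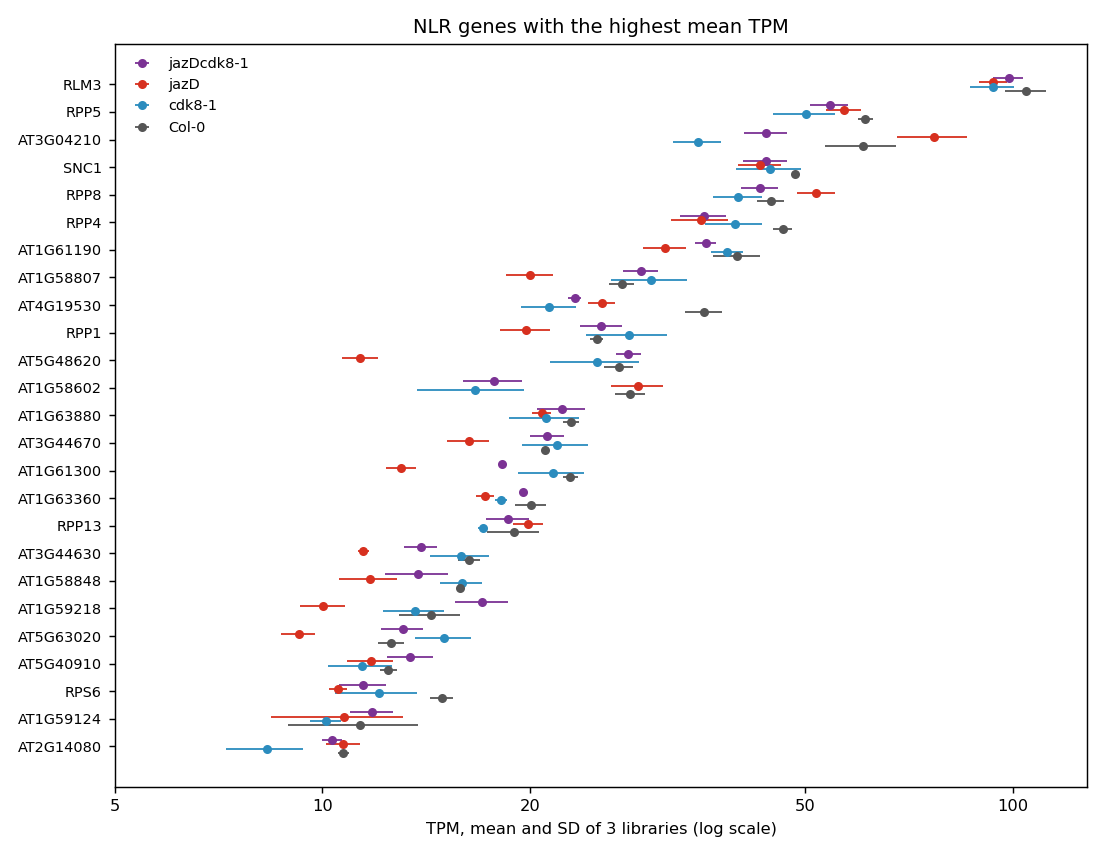
The 25 NLR genes with the highest mean level, as TPM on a log scale, with points for the mean and bars for the SD of 3 libraries in jazDcdk8-1, jazD, cdk8-1 and Col-0. RLM3 stands highest at a mean of 97.7 TPM, AT3G04210 spreads widely between genotypes, and AT5G48620 stands apart in jazD.

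Many NLR genes are near-copies of each other, and this bears on how far their counts can be trusted. At least 1 non-whole expected count, which shows reads divided between genes or isoforms, was found in 39 members, and the other 115 had whole counts in all 12 libraries. The 39 include AT1G58602, AT4G16960, RPP4 and RPP5, non-whole in all 12 libraries, RPS2, non-whole in 11, and SNC1 and AT5G41750, non-whole in 9 each. Within coding sequences from RefSeq, aligned over at least 500 bases, the closest other member had a median identity of 92.5% for members with non-whole counts and of 76.2% for members with whole counts. Identity of at least 95% was found for 12 members of the first kind and 0 of the second. The coding sequences of AT1G58807 and AT1G59124 were 100% identical, as were those of AT1G58848 and AT1G59218, so the split between such partners is uncertain. In position, 104 of the 154 members lay in 36 clusters with no more than 20 kb between neighbours.

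Loss of CDK8 in plants with intact JAZ genes was accompanied mainly by lower NLR transcripts. Between cdk8-1 and Col-0, 25 of the 97 tested members outside the interval were lower and 2 were higher, by the quasi-likelihood test of edgeR with calls at a Benjamini-Hochberg adjusted p under 0.05 across all tested genes. Of all tested genes, 13.8% were called lower and 11.7% higher, so that the members' 25.8% lower lies above the background and their 2.06% higher below it. The median log2 fold change was -0.16 for these members and 0.00 for all tested genes. Among the 61 tested TIR-type genes all 17 calls were lower, with a median of -0.18. Of the 20 CC-type genes 3 were lower and 2 higher, with a median of -0.06. Of the 16 genes of neither text 5 were lower and 0 higher, with a median of -0.14. That class holds RPP13 and RPS2, whose text names NB-ARC but no front domain, so class by text need not match the front domain. The genes that fell included RPP5, RPP4, RPP13, RPS2, SNC1 and RLM3, which all act as or are named for resistance to microbes.

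Library cdk8-1 replicate 2 decided part of that count. It was the lowest of its group for 68 of the 97 members, with a summed level of 857.7 TPM, against 1035 and 984.6 TPM in the other cdk8-1 libraries. Without it, 17 members were lower and 3 higher, with a median log2 fold change of -0.11. NLR genes are long, with a median span of 4273 bp against 2450 bp for all tested genes with a known length. The 3027 tested genes of at least 4000 bp had a median log2 fold change of -0.00 in the same comparison, with 11.9% lower and 11.5% higher. Without replicate 2 their median was 0.03, with 8.99% lower and 13.0% higher. In replicate 2 the median log2 deviation from the group mean was -0.06 for these long genes and -0.10 for the members. The part of gene length in the members' counts was not tested. With total-count scaling 16 members were lower and 3 higher, and with limma on log2(TPM + 1) 11 were lower and 3 higher. These settings also moved the median of all tested genes, to 0.074 and 0.075.

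The largest falls in cdk8-1 were in TIR-type genes under 1 CPM. RMG1 had 1 count in cdk8-1 against 11 in Col-0, a ratio of 11.2, with an exact 95% interval from 1.63 to 481 for counting error only. AT3G04220 and AT3G25510 were at -1.98 ± 0.63 and -1.65 ± 0.50 on the log2 scale. Next came AT1G66090, at -1.07 ± 0.19. Outside the interval 3 of the 97 members were called lower by at least 2-fold, against 471 of all 19059 tested genes. Not all of the genes just named were therefore called, and RMG1 was not called lower in both comparisons of CDK8 loss. AT3G04210 had 56.8, 52.8 and 58.3 CPM (counts per 1000000 after TMM scaling) in the cdk8-1 libraries, against 107, 111 and 91.0 CPM in Col-0. No cdk8-1 library came near any Col-0 library, and the log2 fold change was -0.88 ± 0.07 (SE, adjusted p = 1.14e-08, edgeR). AT1G58602, an NB-ARC gene of neither class text, had 73.4, 54.9 and 62.5 CPM in cdk8-1, against 119, 113 and 109 CPM in Col-0, a log2 fold change of -0.84 ± 0.08. All 3 cdk8-1 libraries lay below all Col-0 libraries for this gene too, though its counts were non-whole in all 12 libraries. AT4G19530, a TIR-type gene, averaged 73.9 ± 4.65 CPM in cdk8-1 and 131 ± 5.57 CPM in Col-0 (SD, n = 3 each), with a log2 fold change of -0.83 ± 0.05.

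The downy mildew receptors, RLM3 and SNC1 fell by less. RPP5 had 222, 193 and 216 CPM in cdk8-1, against 270.1, 272 and 275 CPM in Col-0, with a log2 fold change of -0.37 ± 0.05. RPP4 changed by -0.31, RLM3 by -0.25, RPP13 by -0.23 and SNC1 by -0.21 on the log2 scale. RPP5 and RPP4 kept their call under total-count scaling, whereas SNC1 and RPP13 missed it there, with adjusted p = 0.109 and 0.0543 (edgeR). RPS2, which with RPM1 guards the membrane protein RIN4, fell by 0.41 on the log2 scale, but this call was lost without Col-0 replicate 1, any one of the 3 cdk8-1 libraries, jazD replicate 1 or 3, or jazDcdk8-1 replicate 2 (adjusted p = 0.0528 to 0.244, edgeR). RPM1, the other guard of RIN4, had 9.17 ± 0.17 CPM in cdk8-1 and 10.1 ± 1.22 CPM in Col-0 (SD, n = 3 each) and was not called in any comparison.

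ADR1, a helper NLR that acts downstream of many receptors, went the other way. It had 16.1, 14.3 and 15.7 CPM in cdk8-1, against 11.1, 10.4 and 10.8 CPM in Col-0. All 3 cdk8-1 libraries lay above all Col-0 libraries, and the log2 fold change was 0.51 ± 0.08 (adjusted p = 5.55e-05, edgeR). The only other member called higher was AT5G35450, with a log2 fold change of 0.34, a call lost without cdk8-1 replicate 1 (adjusted p = 0.104) or Col-0 replicate 3 (adjusted p = 0.107, both edgeR). The neighbouring genes AT5G66900 and AT5G66910 had log2 fold changes of -0.02 and -0.30, and the second was called lower, with adjusted p = 0.0373 (edgeR). That call was lost without any one of cdk8-1 replicates 1 and 2 or of the 3 Col-0 libraries (adjusted p = 0.0533 to 0.153, edgeR).

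Loss of CDK8 in the jazD background was compared next, and here the counts lay near those of all tested genes. Between jazDcdk8-1 and jazD, 19 of the 97 members were lower and 13 higher, close to the 19% lower and 16.9% higher among all tested genes. The median log2 fold change was -0.03 for the members and 0.00 for all tested genes. Tested genes of at least 4000 bp differed from both, with 11.7% lower, 26.6% higher and a median of 0.08. With total-count scaling 13 were lower and 15 higher, and in limma on log2(TPM + 1) 7 were lower and 18 higher. These settings also move the median of all genes, to 0.07 and 0.13, and the members' medians of 0.04 and 0.07 lay below it. TIR-type genes had 12 lower and 5 higher of 61, and CC-type genes 3 lower and 4 higher of 20. Genes of neither text had 4 lower and 4 higher of 16. Without jazD replicate 2, which held the highest value of its group for 55 of the 97 members, 12 members were lower and 11 higher.

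Of the members that were lower, 12 were called lower in both comparisons of CDK8 loss, which share no library. They were 12.4% of the 97 members, against 7.9% of all tested genes that were lower in both. They were 48% of the 25 lower in cdk8-1 and 63.2% of the 19 lower in jazDcdk8-1, where the shares among all tested genes were 57.4% and 41.7%. They include AT3G04210, AT1G58602, AT1G63860, AT1G66090, AT2G14080, AT3G25510, AT4G19050, AT4G19530, AT5G41750, RPP13 and RPP5. Across the 97 members the log2 fold changes of the 2 comparisons had a Pearson correlation of 0.778, against 0.524 across all tested genes. These are correlations across genes, which are not independent replicates. The 97 members include RMG1, AT3G04220 and AT3G25510, which have under 1 CPM and the largest falls in cdk8-1. A Pearson correlation is sensitive to such points, and none was computed without them. With total-count scaling 7 members were lower in both, and with limma on log2(TPM + 1) 5 were.

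**Figure D2:**
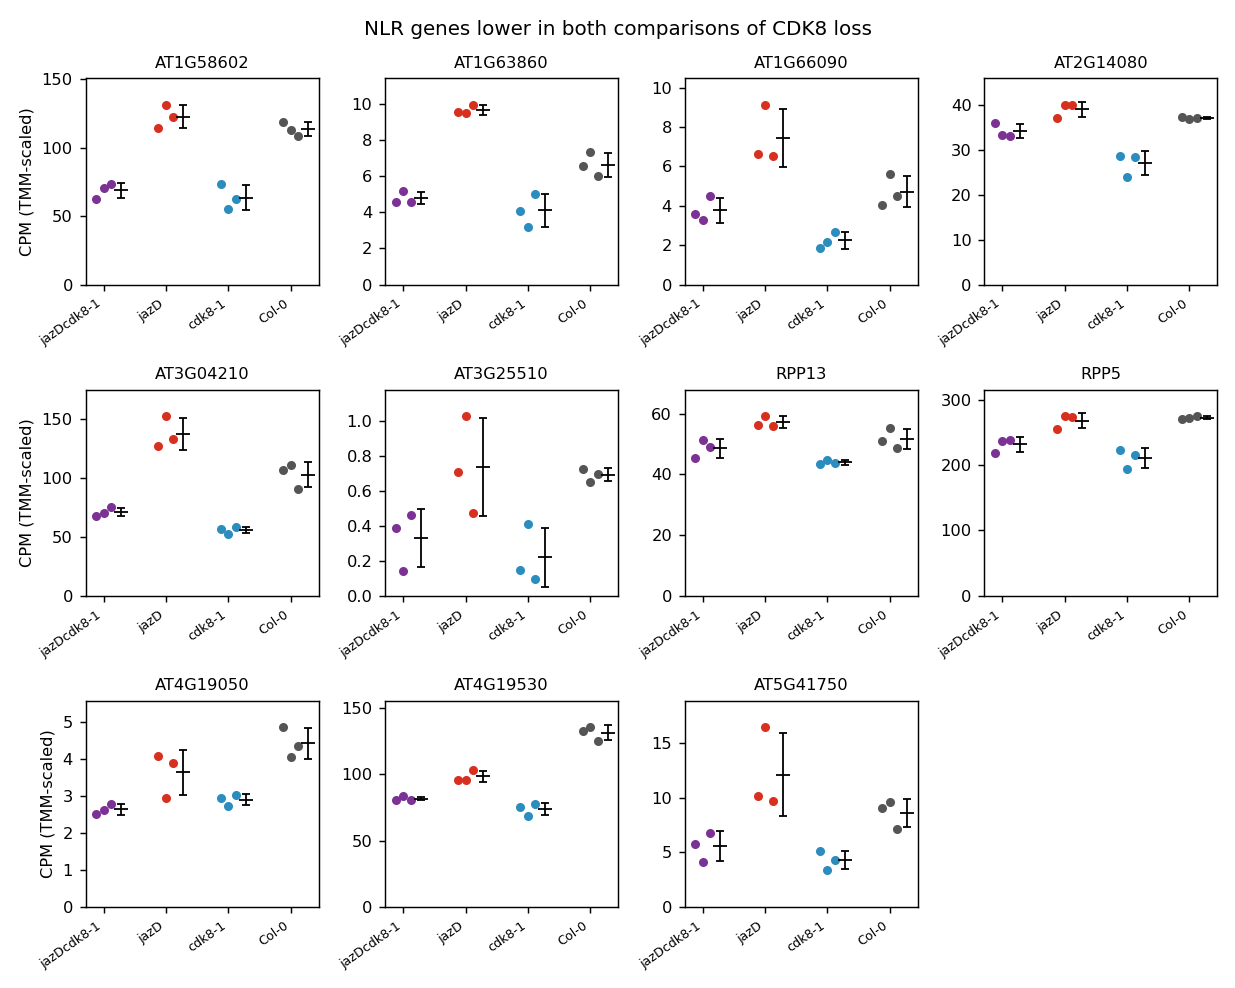
CPM of 11 of the 12 NLR genes called lower in both comparisons of CDK8 loss, with a point for each library and a bar for the mean and SD of 3 libraries in jazDcdk8-1, jazD, cdk8-1 and Col-0. For AT3G04210 and AT1G58602 the 6 libraries without intact CDK8 lie at 75.1 CPM or less and the 6 others at 91.0 CPM or more.

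The promoters of 4 of these genes are printed because they carry the largest falls in jazDcdk8-1 against jazD among the 12, leaving out AT3G25510, which has under 1 CPM. Each window runs from 250 bases before to 50 bases after the annotated gene start, 5′ to 3′ on the strand of the gene, in RefSeq's TAIR10.1 assembly. Capitals mark TTGAC, the core of the W-box to which WRKY transcription factors bind, or its reverse complement GTCAA. At least 1 such core lies in 8 of the 12 windows (66.7%), in 65.3% of 95 windows of the tested members outside the interval, and in 50.5% of the windows of 27443 protein-coding genes. A match is a string of letters and no evidence that a factor binds there.
AT5G41750, chr5:16693582-16693881, plus strand: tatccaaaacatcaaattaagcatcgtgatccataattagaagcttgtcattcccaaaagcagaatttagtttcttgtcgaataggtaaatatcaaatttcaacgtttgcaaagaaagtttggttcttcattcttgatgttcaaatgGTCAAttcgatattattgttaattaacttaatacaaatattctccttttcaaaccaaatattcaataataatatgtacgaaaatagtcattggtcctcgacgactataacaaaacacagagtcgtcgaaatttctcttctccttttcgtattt
AT1G63860, chr1:23706009-23706308, minus strand: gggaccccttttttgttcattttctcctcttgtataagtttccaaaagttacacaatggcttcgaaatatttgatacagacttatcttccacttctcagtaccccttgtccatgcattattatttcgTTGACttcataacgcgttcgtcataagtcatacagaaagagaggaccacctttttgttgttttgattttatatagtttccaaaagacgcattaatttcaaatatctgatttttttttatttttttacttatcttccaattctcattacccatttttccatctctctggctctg
AT1G66090, chr1:24601783-24602082, plus strand: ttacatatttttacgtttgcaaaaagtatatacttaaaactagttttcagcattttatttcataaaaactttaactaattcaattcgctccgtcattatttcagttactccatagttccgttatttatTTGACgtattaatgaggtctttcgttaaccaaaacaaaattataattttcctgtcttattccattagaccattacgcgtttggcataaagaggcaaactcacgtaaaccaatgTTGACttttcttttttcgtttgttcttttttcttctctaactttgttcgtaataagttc
AT3G04210, chr3:1108203-1108502, minus strand: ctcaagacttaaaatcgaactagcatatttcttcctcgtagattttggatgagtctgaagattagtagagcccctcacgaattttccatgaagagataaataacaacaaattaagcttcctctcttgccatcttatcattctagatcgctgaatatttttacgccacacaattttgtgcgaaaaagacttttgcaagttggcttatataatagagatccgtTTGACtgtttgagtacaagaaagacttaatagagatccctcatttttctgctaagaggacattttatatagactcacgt

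These 4 genes had their highest mean in jazD, which their choice by the fall from jazD to jazDcdk8-1 favours. AT5G41750, a TIR-type gene, had 5.73, 4.11 and 6.81 CPM in jazDcdk8-1, against 10.1, 16.5 and 9.71 CPM in jazD. The groups did not overlap, jazD replicate 2 stood above the other jazD libraries, and the log2 fold change was -1.14 ± 0.19 (adjusted p = 7.93e-05, edgeR). AT1G63860 had 4.56, 5.17 and 4.59 CPM in jazDcdk8-1, against 9.53, 9.48 and 9.95 CPM in jazD. This is a clean separation of the groups, with a log2 fold change of -1.01 ± 0.13. AT1G66090, a TIR-NBS gene, had 3.56, 3.25 and 4.49 CPM in jazDcdk8-1, against 6.64, 9.14 and 6.51 CPM in jazD, a log2 fold change of -0.98 ± 0.17. AT3G04210 had 68.0, 70.6 and 75.1 CPM in jazDcdk8-1, against 127, 153 and 133 CPM in jazD. Its 3 jazDcdk8-1 libraries lay far below the 3 jazD libraries, and the log2 fold change was -0.95 ± 0.07 (adjusted p = 9.59e-10, edgeR).

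AT1G58602 averaged 69.0 ± 5.66 CPM in jazDcdk8-1 and 123 ± 8.59 CPM in jazD (SD, n = 3 each), and its log2 fold change of -0.83 ± 0.08 stands beside -0.84 ± 0.08 in the intact JAZ background. The test of the difference between these effects gave 0.00 ± 0.11 (adjusted p = 0.99, edgeR). AT4G19050 was lower by 0.46 on the log2 scale in jazDcdk8-1, but lost this call without any one of jazD replicates 1 and 3 or of the 3 jazDcdk8-1 libraries (adjusted p = 0.0501 to 0.13, edgeR). The call of RPP5 there, at -0.21, was lost under total-count scaling (adjusted p = 0.0674, edgeR).

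The members that were higher in jazDcdk8-1 than in jazD included several near-copies on chromosome 1. AT1G59218 had 53.1, 62.9 and 56.8 CPM in jazDcdk8-1, against 39.3, 33.4 and 39.4 CPM in jazD, with a log2 fold change of 0.63 ± 0.08 (adjusted p = 1.34e-06, edgeR). Since its coding sequence is identical to that of AT1G58848, their sum is the safer value. Together they had 104, 107.0 and 109.9 CPM in jazDcdk8-1, against 84.0, 83.6 and 82.5 CPM in jazD, again without overlap. AT1G58807 and AT1G59124, the other identical pair, together had 134 ± 5.58 CPM in jazDcdk8-1 and 111 ± 8.27 CPM in jazD (SD, n = 3 each). AT1G61300 rose by 0.34, AT5G63020 by 0.36 and AT5G18370 by 0.47 on the log2 scale, and all 3 were lower in jazD than in Col-0. The call of AT5G18370 was lost without jazD replicate 2 (adjusted p = 0.0614) or jazDcdk8-1 replicate 2 (adjusted p = 0.0503, both edgeR).

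Loss of the JAZ repressors alone moved members in both directions in nearly equal numbers. Between jazD and Col-0, 18 of the 97 members were higher and 17 lower, against 21.8% higher and 20.9% lower among all tested genes, so that 18.6% and 17.5% of the members lie just under the background. With limma on log2(TPM + 0.1) 9 were higher and 15 lower. Among tested genes of at least 4000 bp 15.2% were higher and 29.8% lower. The median log2 fold change was -0.01, and 0.00 for all tested genes. Of the 61 TIR-type genes 13 were higher and 8 lower, and of the 20 CC-type genes 4 were higher and 7 lower. Of the 16 genes of neither text 1 was higher and 2 lower. In all, 11 tested members lay within 1 Mb of one of the mutated JAZ genes, of which 2 were called, both higher.

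**Figure D3:**
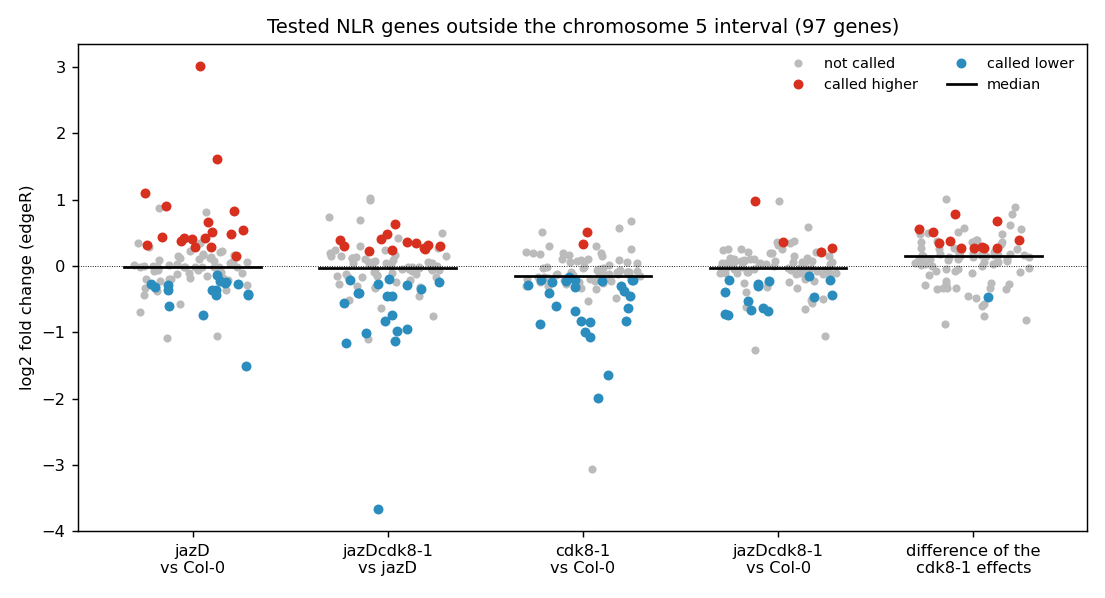
Log2 fold changes (edgeR) of the 97 tested NLR genes outside the chromosome 5 interval in each comparison and for the difference of the cdk8-1 effects between JAZ backgrounds. Points are genes, coloured where called at an adjusted p below 0.05, and black lines are medians, which are -0.16 in cdk8-1 against Col-0 and 0.15 for the difference of the effects.

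AT1G15890, a CC-type gene, had 7.24, 8.75 and 7.70 CPM in jazD, against 3.89, 4.21 and 3.00 CPM in Col-0. The lowest jazD library lay above the highest Col-0 library, and the log2 fold change was 1.10 ± 0.17 (adjusted p = 1.63e-05, edgeR). AT1G15890 lies 0.49 Mb from the mutated JAZ5. An effect of JAZ loss and one of sequence differences linked to JAZ5 cannot be told apart for this gene. AT5G38340, a TIR-type gene near the limit of detection, had 2.83, 3.19 and 1.84 CPM in jazD, against 0.986, 0.903 and 0.700 CPM in Col-0, a log2 fold change of 1.61 ± 0.31. AT4G09420 rose by 0.90, AT4G16960 by 0.83, AT1G66090 by 0.66, AT1G63860 by 0.54, AT5G41750 by 0.51 and AT3G04210 by 0.42 on the log2 scale. The coding sequence of AT4G16960 is 95.06% identical to that of AT4G16940 over 2894 bases, so its share of the reads is uncertain. The call of AT5G41750 rested on jazD replicate 2 and Col-0 replicate 3, with log2 fold changes of 0.21 without the first (adjusted p = 0.33) and 0.39 without the second (adjusted p = 0.127, both edgeR). In the same library, jazD replicate 2, the defence marker PR1 had 2152 counts, against 873 and 768 in the other jazD libraries, and its part in these values was not tested. Among helper genes ADR1 was higher in jazD by 0.31 ± 0.08 on the log2 scale (adjusted p = 0.00425, edgeR), and AT5G66900 was higher by 0.28 ± 0.08.

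Of the called members outside the interval 3 rose and 1, a CC-type gene, fell by at least 2-fold in jazD. These are counts among 97 tested members, against 817 higher and 435 lower among all 19059 tested genes. The other called falls were smaller, and again many were in near-copies. AT1G61300, an NB-ARC gene of neither class text, had 31.7, 33.9 and 33.0 CPM in jazD, against 55.8, 51.9 and 56.7 CPM in Col-0. The groups were far apart, with a log2 fold change of -0.74 ± 0.06 (adjusted p = 2.26e-09, edgeR). AT5G18370 fell by 0.60, AT3G44630 by 0.43, AT4G19530 by 0.42 and AT5G63020 by 0.37 on the log2 scale. The identical pair AT1G58848 and AT1G59218 together had 83.4 ± 0.791 CPM in jazD and 109.7 ± 2.79 CPM in Col-0 (SD, n = 3 each). RPP4 fell by 0.32 and RPP1, a TIR-type downy mildew receptor, by 0.26, while RPP5 at -0.02 and SNC1 at -0.10 were not called. Of the 28 tested members outside the interval with any non-whole count 2 were higher (7.14%) and 8 lower (28.6%). Of the 69 with whole counts 16 were higher (23.2%) and 9 lower (13%), against 21.8% higher and 20.9% lower among all tested genes.

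In the combined mutant fewer members were called than in jazD against Col-0 or in jazDcdk8-1 against jazD. Between jazDcdk8-1 and Col-0, 4 of the 97 members were higher and 15 lower, against 16.3% higher and 16.1% lower among all tested genes, so 4.12% higher lies below the background and 15.5% lower near it. The count higher was 1 without jazDcdk8-1 replicate 3, 2 without Col-0 replicate 1 and 7 without jazDcdk8-1 replicate 1. AT4G19530 had 80.9, 83.3 and 80.9 CPM in jazDcdk8-1, against 133, 136 and 125 CPM in Col-0, with a log2 fold change of -0.68 ± 0.05 (adjusted p = 1.02e-09, edgeR). AT1G58602 fell by 0.72, AT3G04210 by 0.53 and RPP4 by 0.44 on the log2 scale. RPS2 had 4.45, 5.98 and 8.15 CPM in jazDcdk8-1, against 11.8, 8.98 and 9.05 CPM in Col-0, and its log2 fold change was -0.66 ± 0.15. Each of its jazDcdk8-1 libraries was below each Col-0 library, though the spread within jazDcdk8-1 was wide. ADR1 was higher by 0.36 ± 0.08 on the log2 scale, beside 0.31 in jazD and 0.51 in cdk8-1, all set against the same Col-0 libraries.

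Some receptors known from defence phenotypes were not called in any comparison. LAZ5, a TIR-type gene inside the interval, averaged 26.2 ± 2.70 CPM in jazDcdk8-1, 29.7 ± 0.684 CPM in jazD, 23.7 ± 2.57 CPM in cdk8-1 and 27.5 ± 1.04 CPM in Col-0 (SD, n = 3 each). CSA1, a TIR-type gene first described in shade responses, averaged 22.7 ± 0.854 CPM in jazDcdk8-1, 21.8 ± 2.25 CPM in jazD, 19.3 ± 2.65 CPM in cdk8-1 and 19.8 ± 0.925 CPM in Col-0. CHS1, a TIR-NBS gene whose mutation gives defence in the cold, averaged 1.96 ± 0.0967 CPM in jazDcdk8-1, 2.46 ± 0.187 CPM in jazD, 1.98 ± 0.380 CPM in cdk8-1 and 2.78 ± 0.599 CPM in Col-0. For LAZ5 in cdk8-1 against Col-0 the log2 fold change was -0.21 (adjusted p = 0.0533, edgeR), and for CHS1 in jazDcdk8-1 against Col-0 it was -0.51 (adjusted p = 0.0502, edgeR), both just above the threshold for a call.

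Whether the effect of CDK8 loss depended on the JAZ genes was tested as the difference of the effects, jazDcdk8-1 against jazD minus cdk8-1 against Col-0. It was positive for 12 members and negative for 1 of the 97 at an adjusted p below 0.05, against 8.16% positive and 8.39% negative among all tested genes. The median difference was 0.15 on the log2 scale for the members and -0.00 for all tested genes, and 0.08 for the 3027 tested genes of at least 4000 bp, of which 13.3% were called positive and 5.02% negative. The count of positive members was 5 without jazDcdk8-1 replicate 2, 6 without cdk8-1 replicate 2 or jazD replicate 1, 7 without Col-0 replicate 1 or jazDcdk8-1 replicate 3, and up to 16 without one of the others, and DESeq2 called 7. The negative one was ADR1, at -0.46 ± 0.11 (adjusted p = 0.007, edgeR), which rose in cdk8-1 against Col-0 but was at 0.05 ± 0.08 in jazDcdk8-1 against jazD. AT1G59218 had a difference of 0.79 ± 0.11, but the sum of AT1G59218 and its identical partner AT1G58848 had one of 0.47, which was not tested. AT4G19530 had 0.56 ± 0.07, with a log2 fold change of -0.83 in cdk8-1 and of -0.27 in jazDcdk8-1. AT1G61300 had a difference of 0.51 ± 0.08, with a fall in cdk8-1 against Col-0 that was lost without cdk8-1 replicate 2 or 3 or Col-0 replicate 1 or 3 (adjusted p = 0.0567 to 0.179, edgeR).

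**Figure D4:**
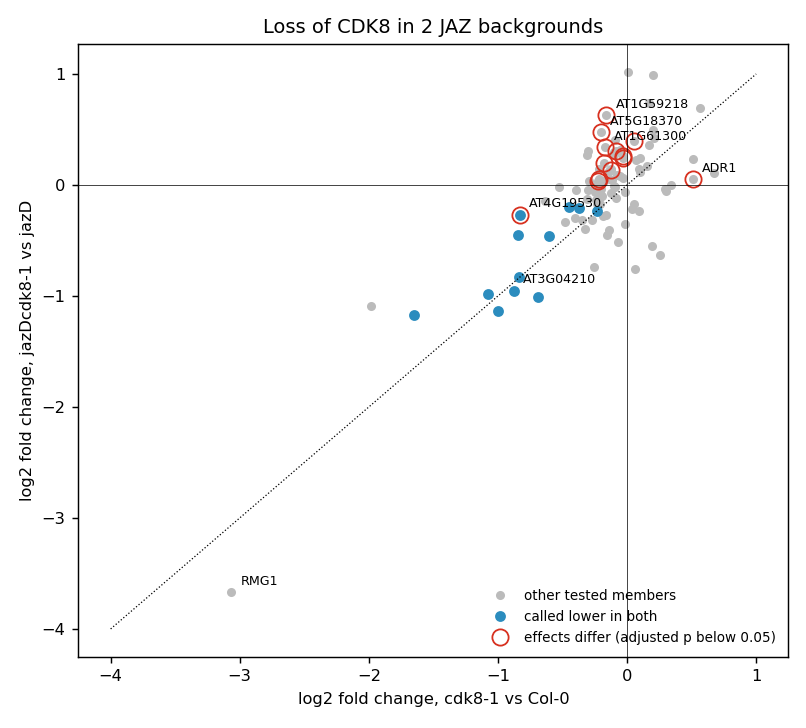
Log2 fold changes (edgeR) of the 97 tested NLR genes outside the chromosome 5 interval, cdk8-1 against Col-0 on the x axis and jazDcdk8-1 against jazD on the y axis. Blue points are the 12 genes lower in both, red rings the 13 genes whose effects differ at an adjusted p below 0.05, and the dotted line marks equal effects.

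The chromosome 5 interval held the largest fitted difference among the tested members. Of the 23 tested members there, 5 were higher and 7 lower in jazD against Col-0, and of all 1282 tested genes with identifiers in the interval 22.2% were higher and 30.7% lower. AT5G51630, a TIR-type gene at chr5:20969128-20975940, had 0, 0 and 1 counts in jazD, against 115, 132 and 103 counts in Col-0. It had 101, 106 and 127 counts in jazDcdk8-1 and 5.14, 5.38 and 5.81 CPM in cdk8-1, so it was nearly absent from the jazD libraries alone. With 1 count in the group, AT5G51630 was lower in jazD than in Col-0 by a ratio of 329, with an exact 95% interval from 58.6 to 1.3e+04 for counting error only. It was higher in jazDcdk8-1 than in jazD by a ratio of 307, with an interval from 54.7 to 1.22e+04. Its level thus differed between jazD and jazDcdk8-1, which both carry the jazD mutations. Sequence differences between the lines were not analysed here.

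AT5G48620, the near-copy of RPP8, had 40.7, 44.2 and 42.6 CPM in jazD, against 94.2, 98.1 and 94.3 CPM in Col-0. In jazDcdk8-1 it had 92.4, 94.2 and 96.7 CPM, so jazD stood apart from the other genotypes with no overlap. The log2 fold change was -1.17 ± 0.07 in jazD against Col-0 and 1.15 ± 0.07 in jazDcdk8-1 against jazD. RPP8 moved in the opposite direction, with 159, 174 and 171 CPM in jazD, against 138, 140.1 and 134 CPM in Col-0, a log2 fold change of 0.29 ± 0.05, and with -0.41 ± 0.05 in jazDcdk8-1 against jazD. Their coding sequences are 95.05% identical over 2729 bases and the counts of RPP8 were non-whole in all 12 libraries. Summed, the pair had 211 ± 9.66 CPM in jazD and 233 ± 5.19 CPM in Col-0 (SD, n = 3 each), with 199.8 to 218 CPM in jazD and 228 to 238 CPM in Col-0.

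**Figure D5:**
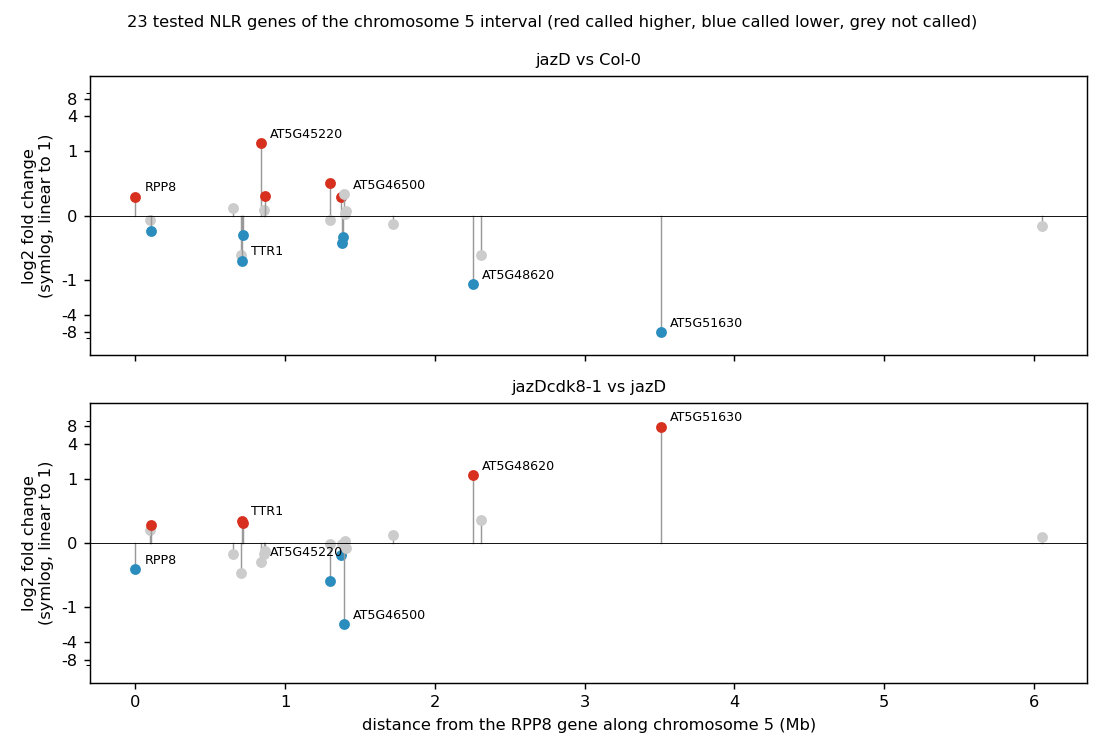
Log2 fold changes (edgeR, symmetric log axis that is linear to 1) of the 23 tested NLR genes of the chromosome 5 interval by distance from RPP8 in Mb, for jazD against Col-0 (top) and jazDcdk8-1 against jazD (bottom). AT5G51630 and AT5G48620 are low in jazD and stand as far above 0 in the lower panel, while AT5G46500 is low in the lower panel only.

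Neighbouring receptors inside the interval had unlike fold changes. RPS4 and RRS1 lie head to head and work as a pair against bacterial and fungal effectors. RRS1 had 29.1, 32.1 and 31.6 CPM in jazD, against 25.5, 26.3 and 23.1 CPM in Col-0, a log2 fold change of 0.31 ± 0.07, and RPS4 had 0.08 ± 0.08 and was not called. In cdk8-1 against Col-0 RPS4 fell by 0.33 ± 0.08 (adjusted p = 0.00484, edgeR), and RRS1, at -0.03 ± 0.07, was not called. TTR1, named for tolerance to a ringspot virus, and its neighbour AT5G45060 had log2 fold changes of -0.70 ± 0.07 and -0.30 ± 0.08 in jazD against Col-0. TTR1 had 17.3, 16.6 and 17.6 CPM in jazD, against 26.9, 28.6 and 27.8 CPM in Col-0, a clear separation. The differences between partners were not tested.

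In cdk8-1 against Col-0, 9 of the 23 members of the interval (39.1%) were lower and 1 higher, against 13.8% lower among all tested genes and 12.4% among those of the interval, and their median log2 fold change was -0.19. In jazDcdk8-1 against jazD, 4 were lower (17.4%) and 5 higher (21.7%), with a median of -0.02. The shares were 18.5% lower and 27% higher among all tested genes of the interval, and 19% and 16.9% among all tested genes. AT5G46500 had 0.612, 0.478 and 0.371 CPM in jazDcdk8-1, against 1.74, 1.92 and 1.90 CPM in jazD, with a log2 fold change of -1.93 ± 0.30 (adjusted p = 2.69e-05, edgeR). It also had 0.299, 0.620 and 0.576 CPM in cdk8-1, against 1.71, 1.61 and 1.10 CPM in Col-0, with -1.55 ± 0.31, so all 6 libraries without intact CDK8 lay below the 6 others. RPS6, which recognises an effector of Pseudomonas syringae, had 57.1, 46.3 and 54.0 CPM in cdk8-1 and 51.1, 49.5 and 53.2 CPM in jazD, against 68.9, 69.7 and 67.4 CPM in Col-0. It was also at 50.7 ± 3.09 CPM in jazDcdk8-1 (SD, n = 3), so the 3 mutants overlapped one another and Col-0 stood above them all. VICTR, a TIR-type gene named for its part in a root growth response to a small molecule, fell by 0.55 ± 0.08 on the log2 scale in cdk8-1 against Col-0 but was at -0.08 ± 0.08 in jazDcdk8-1 against jazD, and the difference of 0.46 ± 0.11 passed the test (adjusted p = 0.0068, edgeR). VICTR is 96.2% identical to its neighbour VICTL, and the pair summed to 36.2 ± 3.28 CPM in cdk8-1 and 42.5 ± 0.995 CPM in Col-0 (SD, n = 3 each). The difference of the effects on that sum was 0.22 on the log2 scale, which was not tested.

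Genes that act with NLR proteins were read from a list of 18 signalling and regulator genes, all of which were tested. In jazD against Col-0, 5 were higher (27.8%) and 4 lower (22.2%), near the shares of all tested genes given above for that comparison, and 3 were higher without jazD replicate 2 or Col-0 replicate 3. RIN4, the membrane protein guarded by RPM1 and RPS2, had 42.5, 47.7 and 45.1 CPM in jazD, against 27.1, 28.8 and 24.5 CPM in Col-0, a log2 fold change of 0.75 ± 0.07 (adjusted p = 1.13e-08, edgeR). The groups were far apart. SAG101, one of the partners of EDS1, rose by 0.47 ± 0.08, and the chaperone genes SGT1A and SGT1B by 0.21 and 0.20 on the log2 scale. SGT1A missed the threshold when jazD replicate 1 or 2 or Col-0 replicate 3 was left out (adjusted p = 0.0548 to 0.0673, edgeR). HSP90.1, a chaperone of NLR proteins with an identifier in the interval, rose by 0.51, a call lost without jazD replicate 2, where it was 0.18 (adjusted p = 0.472), without Col-0 replicate 2 or 3 (adjusted p = 0.145 and 0.0856) and without jazDcdk8-1 replicate 1 (adjusted p = 0.0505, all edgeR). HSP90.2, whose identifier also lies in the interval, fell by 0.19. MOS1, a regulator of SNC1 transcription, and SRFR1, a repressor of NLR function, fell by 0.22 and 0.26. PAD4, the other partner of EDS1, fell by 0.24, a call lost without any one of Col-0 replicates 1 and 3 or jazD replicates 1 and 3 (adjusted p = 0.0667 to 0.149, edgeR). EDS1 itself had a log2 fold change of -0.06 and was not called in any comparison.

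In jazDcdk8-1 against jazD, 2 genes of this list were higher, the chaperone HSP90.2 and the F-box gene CPR1, and 5 lower. These are 11.1% and 27.8% of the list, against 16.9% and 19% of all tested genes. The call of CPR1, at 0.19 on the log2 scale, was lost with DESeq2 and without jazD replicate 1 or 3 or jazDcdk8-1 replicate 1 or 2 (adjusted p = 0.0693 to 0.139). RIN4 had 26.5, 29.8 and 27.6 CPM in jazDcdk8-1, against 42.5, 47.7 and 45.1 CPM in jazD, with -0.69 ± 0.07. NDR1, which several CC-type receptors need, fell by 0.42 ± 0.11, SAG101 by 0.31 ± 0.08 and HSP90.1 by 1.00 ± 0.21. In cdk8-1 against Col-0, 1 was higher (5.56%) and 2 lower (11.1%), both shares under those of all tested genes, with RIN4 at -0.44 ± 0.07 and PAD4 at -0.43 ± 0.08, and HSP90.2 at 0.23 ± 0.05. PAD4 had 15.2, 15.7 and 17.5 CPM in cdk8-1, against 23.1, 19.9 and 21.9 CPM in Col-0, with no overlap. In jazDcdk8-1 against Col-0, PAD4 was lower at -0.39 ± 0.08, and HSP90.2 and CPR1 were higher at 0.16 ± 0.05 and 0.18 ± 0.06. Both higher calls were lost without Col-0 replicate 1 or 3 (adjusted p = 0.0591 to 0.147, edgeR), that of HSP90.2 also without jazDcdk8-1 replicate 3, and that of CPR1 also without jazDcdk8-1 replicate 1 or 2. Leaving out any 1 library gave 0 to 2 genes higher there, with the lowest count without Col-0 replicate 1 or 3.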

How the data were processed

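RNA-seq of whole rosettes was deposited for 12 libraries, 3 per genotype, each a separate pool of plants. Per the submitters' processing notes the tools include RSEM 1.2.25 and the build TAIR10, and per the file headers RSEM ran with its default parameters. The aligner, the annotation release and the strand setting are not given in the sources used here. The deposited table gives expected counts and TPM per gene, and the authors' TPM sums to 1000000 in every library. Reads that match several genes are shared out in expected counts, so near-identical receptors are uncertain, and without a stated strand setting so are antisense partners.

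Expected counts were rounded to whole numbers, filtered with filterByExpr and tested in edgeR 4.0.16 (R 4.3.3) with TMM scaling and a quasi-likelihood fit of genotype over all 12 libraries. Benjamini-Hochberg adjustment ran over the 19059 genes tested, with calls at an adjusted p below 0.05, and the common dispersion was 0.002566. A log2 fold change is given ± its SE. The script was tested on simulated counts. As alternatives, 8 settings (DESeq2 1.42.0, limma 3.58.1 on log2(TPM + 1) or log2(TPM + 0.1), a replicate block, RLE scaling, total-count scaling, no filter, and a minimum of 1 CPM in 3 libraries) and 12 fits without 1 library were run. Library totals limit precision, and intervals on counts cover counting error only.

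Named genes were a list of known receptors and, per comparison and region, the 6 highest and 6 lowest called members with a mean of at least 1 CPM, plus the 6 highest by TPM. AT1G58848, AT1G59124, AT2G14080, AT3G04220, AT3G25510, RMG1, VICTL and the printed promoters were chosen after their values were seen. The values of 1 member are not reported here, though it stays in the counts. Receptors in that list whose text the rule did not take were not analysed here. The members and lists were chosen with earlier results of these data known. Names, positions, coding sequences (compared with BLAST 2.17.0) and promoters came from RefSeq's TAIR10.1, in which all 154 members had an entry, and 95 of the 97 tested members outside the interval had a promoter window. Counts within 0.005 of a whole number were taken as whole.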

Additional observations from a re-analysis of the deposited data

Results flagged for a closer look

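The difference between the effects of CDK8 loss in the 2 JAZ backgrounds, jazDcdk8-1 against jazD minus cdk8-1 against Col-0, passed an adjusted p of 0.05 (edgeR) for 16 named members. Some were named for their result in this same test, so the 16 are no share of the members. It passed for 13 of 97 tested members outside and 7 of 23 inside the interval, against 3154 of all 19059 tested genes. Inside, 30.4% of members were positive and 0% negative, against 16.4% and 9.98% of the 1282 tested genes there. Outside the chromosome 5 interval the difference was 0.79 for AT1G59218, 0.68 for AT5G18370, 0.56 for AT4G19530, 0.51 for AT1G61300, 0.39 for AT1G61180, 0.38 for AT4G19510, 0.34 for AT1G58807 and 0.26 for AT3G44630 on the log2 scale, and -0.46 for ADR1. Inside it the difference was 7.95 for AT5G51630, a fitted value that rests on 1 count in jazD, 1.34 for AT5G48620, 0.62 for AT5G47250, 0.46 for VICTR, 0.39 for TTR1, 0.37 for AT5G45060 and 0.37 for RPS6. For the sums of near-identical partners the differences, which were not tested, were 0.47 for AT1G58848 with AT1G59218, 0.30 for AT1G58807 with AT1G59124, 0.29 for RPP8 with AT5G48620 and 0.22 for VICTL with VICTR. Leaving out 1 library ended the call in 7 fits for AT4G19510, 6 for AT3G44630, 5 for AT1G61180 and for AT5G45060, 3 for AT5G18370 and 2 for AT1G58807, with adjusted p = 0.0506 to 0.126 (edgeR). With DESeq2 those of AT1G61180, AT4G19510 and AT5G18370 were lost (adjusted p = 0.051 to 0.0564), and with total-count scaling that of AT4G19510. No cause was tested for these differences.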

How the results depend on the processing

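Replicate numbers did not pair the samples, since same-numbered libraries of different genotypes had correlations of -0.0583 to 0.0508 in their deviations from the group means. With the replicate block 23 members outside the interval were lower in cdk8-1 against Col-0 and 10 had a positive difference of effects, beside 25 and 12.

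Limma on log2(TPM + 1) and on log2(TPM + 0.1), given in that order, moved many counts. For jazD against Col-0 it called 10 and 9 members outside the interval higher, 3 and 3 inside, and 2 and 2 signalling genes, whose median was 0.072 and 0.079. For jazDcdk8-1 against jazD, where all genes shifted by 0.126 and 0.146, it called 7 and 7 outside lower, and 4 and 4 signalling genes higher and 3 and 3 lower. The medians were 0.095 outside with 0.1 added, 0.108 and 0.12 inside, and 0.079 and 0.085 for signalling, so their signs turned, while all stayed under that shift of all genes. For cdk8-1 against Col-0 it called 11 and 11 outside and 4 and 4 inside lower and 2 and 2 signalling genes higher, with medians of -0.05 outside (1 added) and 0.037 and 0.038 for signalling. For jazDcdk8-1 against Col-0 it called 2 and 2 outside higher, 8 and 8 outside and 3 and 3 inside lower, and 4 and 4 signalling genes higher, with medians of 0.026 outside (0.1 added) and 0.137 and 0.143 for signalling. For the difference of effects it called 5 and 5 outside positive, 0 and 0 negative, and 4 inside positive (0.1 added). It called 5 and 5 outside and 1 and 1 inside lower in both comparisons of CDK8 loss.

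Total-count scaling called 16 outside lower and 2 signalling genes higher (median 0.027) in cdk8-1 against Col-0, 4 signalling genes higher in jazDcdk8-1 against jazD, 2 inside higher in jazDcdk8-1 against Col-0, and 7 outside lower in both. DESeq2 called 1 signalling gene higher in jazDcdk8-1 against jazD and 1 against Col-0, 0 inside higher in the second, and 7 outside with a positive difference. Without a filter 2 outside had a negative difference and 2 signalling genes were lower in jazDcdk8-1 against Col-0. The cause was not tested.

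Leaving out 1 library at a time gave 3 to 7 signalling genes higher in jazD against Col-0, 12 to 19 members outside lower and 1 to 2 signalling genes higher in jazDcdk8-1 against jazD, and 1 to 3 outside higher in cdk8-1 against Col-0. For jazDcdk8-1 against Col-0 it gave 1 to 7 outside, 0 to 2 inside and 0 to 2 signalling genes higher and 1 to 2 signalling genes lower. For the difference of effects it gave 5 to 16 outside positive and 1 to 2 negative, 0 to 1 inside negative, and 0 to 1 signalling genes positive and 0 to 2 negative. No named gene changed sign with a call in these 20 settings.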

Other observations

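RMG1, an NLR gene whose promoter is known to be silenced by DNA methylation, had 2, 0 and 5 counts in jazDcdk8-1, against 17, 52 and 18 counts in jazD. It had 0, 0 and 1 counts in cdk8-1, against 4, 3 and 4 counts in Col-0. The gene was chosen after its values were seen and averaged under 1 CPM. Its log2 fold change was -3.67 in jazDcdk8-1 against jazD and 3.01 in jazD against Col-0. In cdk8-1 it was lower than in Col-0 by a ratio of 11.2, with a counting interval from 1.63 to 481. That interval leaves out the spread between libraries, and RMG1 was not among the 12 members called lower in both comparisons of CDK8 loss. The highest value was again in jazD replicate 2, the library with the most PR1 counts.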
